A study of Homo sapiens with 32 samples.

Results

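The genes described here are 9 interferon-stimulated genes: IFIT1, IFIT2, IFIT3, ISG15, MX1, OAS1, OAS3, IFI6 and IFI27. They were chosen by name, and their rows were read from a table of 35238 genes in 32 RNA-seq libraries of human endometrial cancer cell lines. All 9 were found, and all 9 passed a filter of more than 1 CPM (counts per 1000000 reads) in at least 2 libraries. OAS1 passed through 8 libraries, every one of them HEC265. OAS3 was above 1 CPM in 20 libraries, IFI6 in 24, IFI27 in 25 and the other members in all 32.

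The lines were Ishikawa, labelled CTNNB1-wildtype, and Ishikawa-S33Y, SNGM and HEC265, each labelled CTNNB1-mutated. Each line was treated for 24 h with vehicle (0.1% DMSO), paclitaxel, SM08502 or the combination of both drugs, with 2 libraries a group. Paclitaxel, a taxane, binds and stabilises microtubules. SM08502 is an inhibitor of CLK kinases, which phosphorylate the SR proteins of splicing. The doses were set to each line's own 50% inhibitory concentration of viability. Ishikawa received 11 nM paclitaxel and 80 nM SM08502, and Ishikawa-S33Y received 6 nM and 85 nM. SNGM received 11.7 nM and 350.7 nM, and HEC265 5.6 nM and 149 nM, so lines were not compared at a matched dose. Ishikawa libraries were made from 350 ng of RNA and those of the other lines from 500 ng, so this input cannot be told apart from the Ishikawa line. The 3 CTNNB1-mutated lines come from different backgrounds, how Ishikawa-S33Y was derived is not given in the sources used here, and a single wildtype line stood against them. The cells were plated in duplicate, and the p-values measure the spread between those duplicates.

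Type I interferons bind the receptor IFNAR1 and IFNAR2, and type III interferons bind IFNLR1 with IL10RB. Both receptors signal through the kinases JAK1 and TYK2 to STAT proteins, which join IRF9 and bind the interferon-stimulated response element in the promoters of these genes. IFIT1 and IFIT2 bind foreign RNA, and IFIT3 forms complexes with them. OAS1 and OAS3 make the second messenger that activates RNase L, MX1 is a GTPase that blocks virus replication, and ISG15 is a ubiquitin-like modifier. IFI6 and IFI27 are small membrane proteins of the same response.

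Depth was 13026400 to 34127623 reads in 30 of 32 libraries. The other 2, the second combination libraries of Ishikawa-S33Y and SNGM, held 2991041 and 1607038 reads, so that 1 read was worth 0.334 and 0.622 CPM there, and the combination calls in those lines are given with and without them. The epithelial markers EPCAM, CDH1, KRT8, KRT18, KRT19 and PAX8 summed to between 948 and 3484 CPM in every library. The 6 leukocyte markers summed to at most 52.5 CPM and the 3 plasmacytoid dendritic cell markers to at most 3.63 CPM. The 5 fibroblast markers summed to 712 to 1163 CPM in Ishikawa-S33Y, of which COL1A1 made up 707 to 1158 CPM, to 29.4 to 192 CPM in Ishikawa and to at most 6.90 CPM in SNGM and HEC265, and their part in the line differences was not tested. The share of reads on mitochondrial genes ran from 3.91% to 14.3% over the libraries and differed between the duplicates of Ishikawa on SM08502 (10.8% and 3.91%). Its part in the results was not tested. In bulk libraries, fewer cells expressing a gene and less RNA per cell cannot be told apart.

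The members were chosen as interferon-stimulated genes, so finding the response element named above in their promoters is not independent of that choice. IFIT1, IFIT2 and IFIT3 lie in a cluster on chromosome 10, where RefSeq places LIPA over all 3, and OAS1 and OAS3 are neighbours on chromosome 12. RefSeq (GRCh38.p14) gave a promoter window, from 250 bases before to 50 bases after each start site, for 8 of the 9 members and none for IFIT2. The core of the interferon-stimulated response element was searched on both strands as a pair of GAAA with any 2 bases between them, or with any 1 base between them, and matches could overlap. At least 1 window of 7 of the 8 members held the pair with 2 bases between, against 4.38% of 27305 genes with a promoter entry. OAS1 held the pair with 1 base between, against 3.87%. The STAT dimer core, TTC and GAA with any 3 bases between them, was in a window of MX1, OAS1 and IFI27, which is 3 of 8 members against 9.38% of genes. The stretches before the start site are shown because they carry the matches, which stand in capitals. A match on the opposite strand reads as TTTC pairs. They are printed on the strand of the gene.

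IFIT1, chr10:89392487-89392549, plus strand: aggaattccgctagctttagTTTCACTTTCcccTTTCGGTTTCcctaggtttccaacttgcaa
IFIT3, chr10:89327821-89327904, plus strand: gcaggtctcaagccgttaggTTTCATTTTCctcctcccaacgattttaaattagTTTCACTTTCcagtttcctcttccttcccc
ISG15, chr1:1013364-1013419, plus strand: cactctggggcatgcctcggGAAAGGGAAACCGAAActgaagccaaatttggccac
OAS1, chr12:112906925-112906961, plus strand: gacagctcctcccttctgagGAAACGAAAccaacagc
OAS3, chr12:112938306-112938473, plus strand: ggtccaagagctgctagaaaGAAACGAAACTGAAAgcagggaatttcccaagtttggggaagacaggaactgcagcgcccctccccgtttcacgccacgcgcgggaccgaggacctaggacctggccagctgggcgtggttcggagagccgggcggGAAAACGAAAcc
IFI6, chr1:27672256-27672368, minus strand: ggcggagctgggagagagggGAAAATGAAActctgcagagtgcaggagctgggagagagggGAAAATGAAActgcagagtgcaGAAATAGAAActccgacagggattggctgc

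The first bases of the matches lay 116 and 103 bases before the start site in IFIT1, 156 and 122 in IFIT3, 113 and 107 in ISG15, and 156, 115 and 93 in IFI6. In OAS3 they lay 148, 143 and 12 bases before it, and in OAS1 the match lay 17 bases before it. The 2 matches of IFI27 lay 108 and 95 bases before its first listed start site. The matches are a description of the letters in these windows.

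On vehicle the members did not share one order of the lines, and OAS3 differed most. OAS3 was listed at 0.0617 and 0.0768 CPM in the Ishikawa vehicle libraries, which is 1 read in each. It was at 0.690 and 0.964 CPM in Ishikawa-S33Y, 58.7 and 62.7 CPM in SNGM, and 96.1 and 85.3 CPM in HEC265. The lines did not overlap, and OAS3 was the member with the widest span between them. By pooled reads, SNGM was 889 times Ishikawa (95% exact conditional interval 246 to 7344) and HEC265 1321 times (365 to 10908). Against Ishikawa-S33Y the ratios were 72.5 (52.5 to 103) and 108 (78.0 to 153). These intervals cover counting error only. In limma, on log2(CPM + 1), all 6 pairs of lines were called. With a pseudocount of 0.1, HEC265 minus SNGM did not pass (0.58, adjusted p = 0.136, limma). On log2(CPM + 1), SNGM lay above Ishikawa by 5.85 ± 0.14 (SE, 2 libraries a line) and HEC265 lay above it by 6.42 ± 0.14. OAS3 reached at most 0.427 CPM in any Ishikawa library, so it passed the filter on low values only through other lines. Its differences from Ishikawa are therefore given as a description, with no p-value.

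OAS1, which makes the same messenger as OAS3, followed a similar order at a low level. It had 0.185 and 0 CPM in Ishikawa, 0.246 and 0.0838 CPM in Ishikawa-S33Y, 0.511 and 0.703 CPM in SNGM, and 1.65 and 1.58 CPM in HEC265. The HEC265 libraries lay above all others, and the Ishikawa pair overlapped that of Ishikawa-S33Y. OAS1 passed the filter on low values only through the HEC265 libraries, so its line differences are given as a description, with no test. On the log2(CPM + 1) scale HEC265 lay above Ishikawa by 1.26 and above Ishikawa-S33Y by 1.17. Ishikawa-S33Y lay above Ishikawa by 0.09.

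The IFIT genes ran the other way, with HEC265 lowest. IFIT1 was at 18.9 and 18.5 CPM in Ishikawa, 11.5 and 13.0 CPM in Ishikawa-S33Y, 12.5 and 13.1 CPM in SNGM, and 2.72 and 1.62 CPM in HEC265. Ishikawa was above and HEC265 below all other vehicle libraries, and the middle lines overlapped. HEC265 was lower than Ishikawa by a log2 difference of -2.66 (SE 0.19, adjusted p = 5.18e-11, limma).

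IFIT2 was at 23.4 and 18.7 CPM in Ishikawa, 9.96 and 14.0 CPM in Ishikawa-S33Y, 10.3 and 10.8 CPM in SNGM, and 4.50 and 4.86 CPM in HEC265. Ishikawa was again above and HEC265 below the rest, and HEC265 was lower than Ishikawa by -1.95 (SE 0.23, adjusted p = 2.04e-07, limma). IFIT3, which forms complexes with IFIT1 and IFIT2, departed from this order because SNGM was highest.

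IFIT3 had 12.9 and 10.4 CPM in Ishikawa, 6.26 and 5.83 CPM in Ishikawa-S33Y, 15.9 and 15.5 CPM in SNGM, and 4.67 and 4.13 CPM in HEC265. No pair of lines overlapped, and IFIT3 in SNGM exceeded Ishikawa by 0.40 (adjusted p = 0.0396, limma), a call lost in 6 of 13 alternative analyses. LIPA, the lysosomal lipase gene that overlaps the 3 IFIT genes, fell in the order Ishikawa, Ishikawa-S33Y, SNGM, HEC265, with means of 310, 189, 132 and 85.3 CPM on vehicle. The strand of counting is not given in the sources used here, and the part of LIPA reads in the IFIT values was not tested.

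The modifier ISG15 was higher in Ishikawa than in any other line. Its values were 19.5 and 21.5 CPM in Ishikawa, 4.88 and 5.41 CPM in Ishikawa-S33Y, 6.32 and 5.71 CPM in SNGM, and 9.17 and 5.60 CPM in HEC265. Ishikawa-S33Y was lower than Ishikawa by -1.81 (SE 0.25, adjusted p = 5.73e-06, limma), and no pair among the 3 mutated lines passed. In IFI6 the vehicle values were 3.95 and 2.61 CPM in Ishikawa, 2.02 and 1.34 CPM in Ishikawa-S33Y, 4.37 and 4.22 CPM in SNGM, and 0.712 and 1.16 CPM in HEC265. IFI6 in SNGM was above both mutated neighbours, and its difference from Ishikawa (0.33, adjusted p = 0.285) did not pass.

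MX1 and IFI27 gave no pair of lines past the threshold. MX1 ran from 4.48 to 8.20 CPM on vehicle, highest in SNGM (6.87 and 8.20), and IFI27 from 0.690 to 1.46 CPM. By voom on the recovered reads MX1 was higher in SNGM than in Ishikawa (0.66, adjusted p = 0.0130).

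Over the 6 pairs of lines, the 8 members other than OAS1 had 28 calls in 48 tests, 9 higher and 19 lower in the line named first. These 48 tests include OAS3, which was above 1 CPM in no Ishikawa library. OAS1 passed the filter only through HEC265, so its 5 calls are not taken as results. With them the total was 33 of 54, 14 higher and 19 lower. The share of all 17011 genes called was 48.3% for Ishikawa-S33Y minus Ishikawa, 66.8% for SNGM minus Ishikawa, 63.3% for HEC265 minus Ishikawa, 60.8% for SNGM minus Ishikawa-S33Y, 58% for HEC265 minus Ishikawa-S33Y and 54.9% for HEC265 minus SNGM. The members' counts in that order were 6, 6, 7, 4, 4 and 6 of 9. They include an OAS1 call in every pair but the first, so they are not set against those shares. The 28 of 48 calls without OAS1 were near those shares, so lines differed in many genes and not in these alone. The median difference of the members, OAS1 included, was -0.57, 0.33, -1.14, 0.46, 0.02 and -0.55. Over all genes it was -0.05, -0.13, -0.17, -0.05, -0.08 and -0.04. The member median of 0.46 is the value of OAS1 itself. After quantile normalisation, which moved the median of all genes in HEC265 minus Ishikawa from -0.17 to 0.10, the calls split into 25 higher and 17 lower, and the IFIT3 difference of HEC265 from Ishikawa-S33Y turned from -0.38 (not called) to 0.44 (called).

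**Figure D1:**
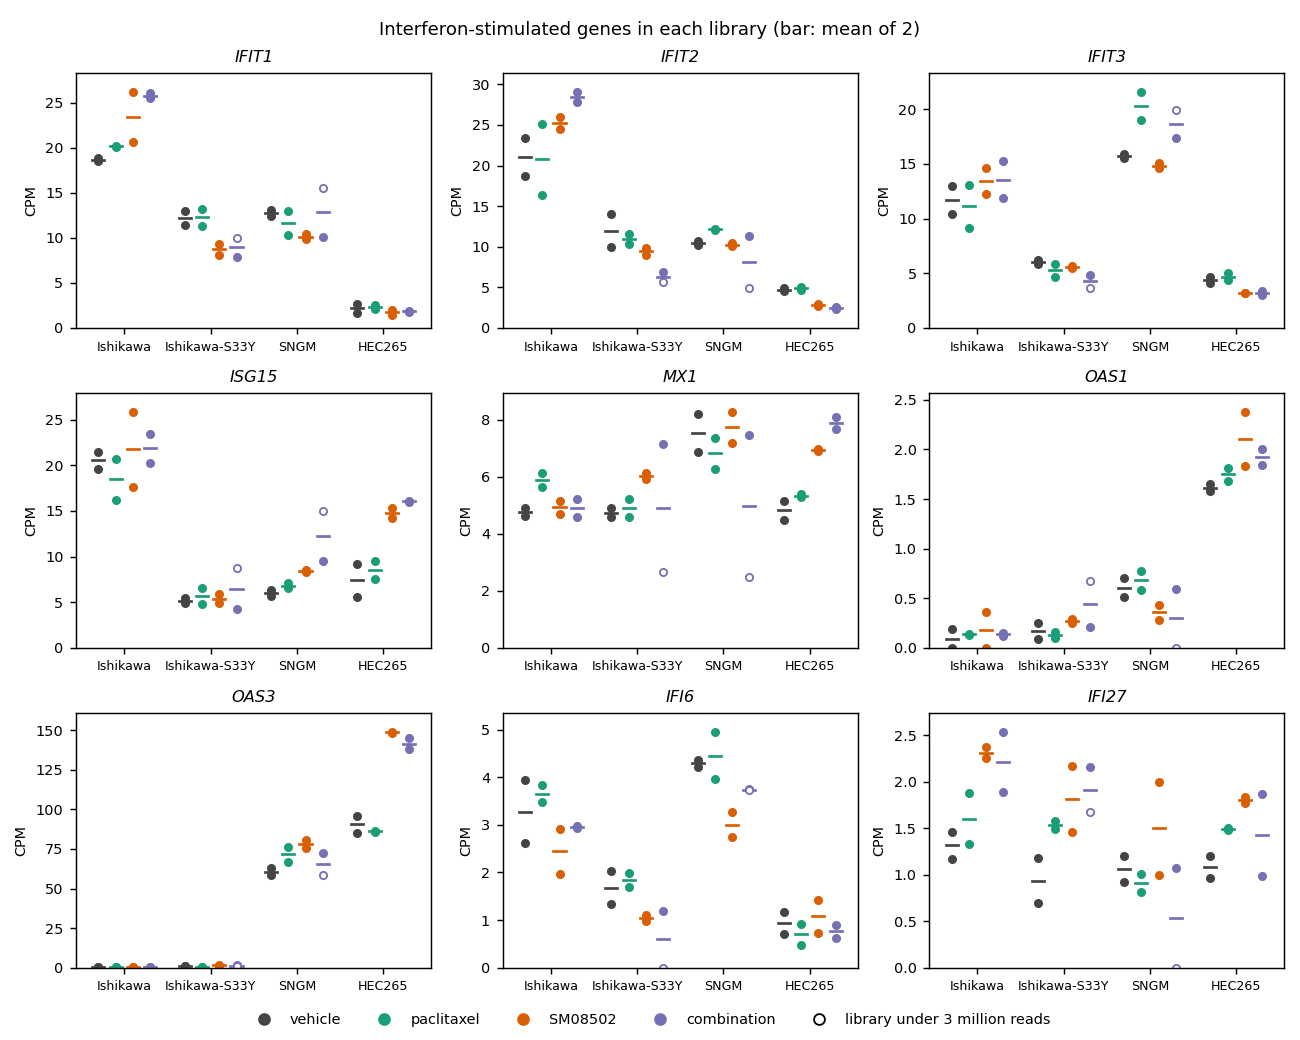
CPM of each member (vertical axes, linear, from 0) in every library, by line (horizontal axis) and treatment (colour). Points are libraries, bars are means of 2, and open points are the libraries of 2991041 and 1607038 reads. OAS3 stands near 0 in both Ishikawa lines and between 58.5 and 149 CPM in SNGM and HEC265.

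**Figure D2:**
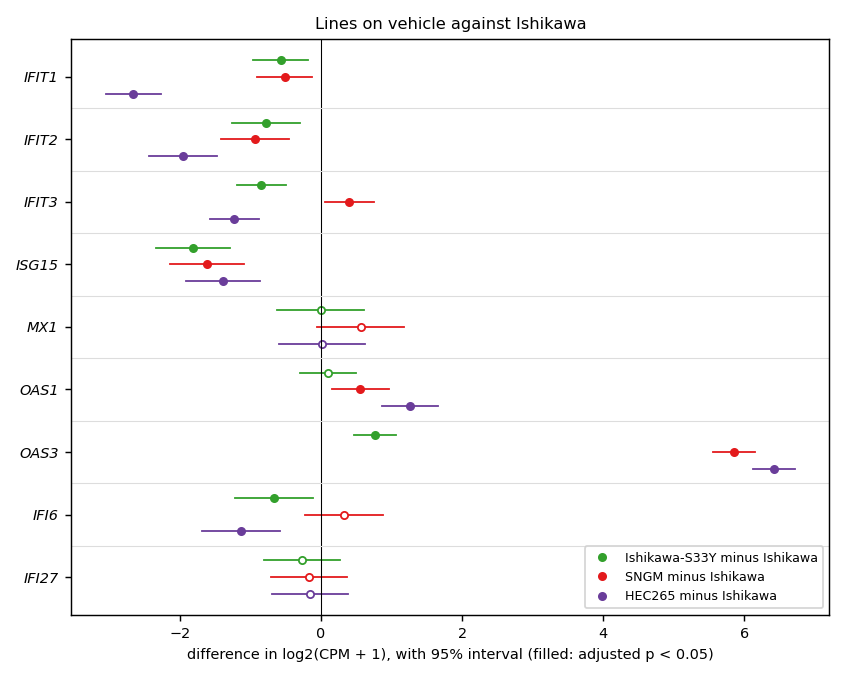
Difference of each member on vehicle between each CTNNB1-mutated line and Ishikawa, in log2(CPM + 1), with 95% intervals. Filled points passed an adjusted p of 0.05, and OAS3 stands at 5.85 in SNGM and 6.42 in HEC265. OAS1 passed the filter only through HEC265, and OAS3 was above 1 CPM in no Ishikawa library, so the points of both are a description.

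By limma with all lines fitted together, SM08502 raised OAS3 and ISG15 in HEC265, and no member passed in the other lines. OAS3 went from 96.1 and 85.3 CPM on vehicle to 148 and 149 CPM on SM08502 in HEC265, with no overlap. The change was 0.71 ± 0.14 (SE, n = 2 and 2, adjusted p = 0.00162, limma), a 1.64-fold rise on the log2(CPM + 1) scale. With a pseudocount of 0.1 the same change did not pass (0.72, adjusted p = 0.155).

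ISG15 went from 9.17 and 5.60 CPM to 14.2 and 15.3 CPM in HEC265, again without overlap, a change of 0.94 ± 0.25 (adjusted p = 0.0140, limma). Its vehicle duplicates were unequal. Without the lower one the change was 0.63 and did not pass (adjusted p = 0.242), nor did it without either SM08502 library (0.99, adjusted p = 0.0656, and 0.90, adjusted p = 0.106) or after quantile normalisation (0.67, adjusted p = 0.155).

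The leukocyte markers moved with these changes through CD68, a lysosomal protein gene used as a macrophage marker. All 6 markers summed to 10.1 and 9.69 CPM on vehicle in HEC265, 36.0 and 40.1 CPM on SM08502 and 40.0 and 52.5 CPM on the combination. CD68 alone was at 8.99 and 8.42 CPM, 34.3 and 38.7 CPM, and 38.2 and 50.4 CPM in the same order. The other 5 together ran from 0.601 to 2.05 CPM over the HEC265 libraries, where PTPRC, the defining leukocyte marker, reached at most 1.34 CPM and CD3E, CD14, LYZ and CD79A at most 0.478 CPM. CD68 was also higher on SM08502 in the lines where limma called no member. It went from 14.9 and 17.2 to 27.3 and 21.3 CPM in Ishikawa and from 16.3 and 19.3 to 35.4 and 33.6 CPM in SNGM. In Ishikawa-S33Y it went from 3.30 and 3.65 to 6.65 and 5.97 CPM. The part of CD68 in the OAS3 and ISG15 changes was not tested.

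The OAS3 and ISG15 calls were 2 of 36 tests over lines and members. Ishikawa had 15.2% of all genes called on SM08502 (6.5% higher, 8.68% lower) and no member. Ishikawa-S33Y had 29.1% (18.5% higher, 10.6% lower) and SNGM 7.86% (3.8% higher, 4.06% lower), both again without a member. HEC265 had 14.7% (9.27% higher, 5.39% lower) and 2 of 9 members. After quantile normalisation the 2 calls were 1 higher and 1 lower, and after centring on the median there were 3, 2 higher and 1 lower. By limma 0 members were called in Ishikawa, Ishikawa-S33Y and SNGM, where 0, 3 and 1 had an unadjusted p under 0.05. Voom called 0, 1 and 1 there. The IFIT1 value of Ishikawa-S33Y is the one voom called (-0.49, adjusted p = 0.0352), along with OAS3 in SNGM (0.37, adjusted p = 0.0167). The median change of the members was 0.19, 0.05, -0.03 and 0.24 in the 4 lines, beside 0.00, 0.11, 0.00 and 0.07 over all genes.

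Averaged over the 4 lines with equal weight, SM08502 raised OAS3, IFI27 and ISG15. For OAS3 the mean change was 0.42 ± 0.07 (adjusted p = 7.72e-05, limma), and the SM08502 libraries lay above the vehicle libraries in each line. In SNGM, OAS3 went from 58.7 and 62.7 to 75.8 and 80.8 CPM, in Ishikawa-S33Y from 0.690 and 0.964 to 1.22 and 1.48 CPM, and in Ishikawa from 0.0617 and 0.0768 to 0.231 and 0.304 CPM.

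The small mitochondrial protein gene IFI27 rose by 0.43 ± 0.13 (adjusted p = 0.0109, limma). With a pseudocount of 0.1 it was 0.69 and did not pass (adjusted p = 0.113). Its vehicle values ran from 0.690 to 1.46 CPM and its SM08502 values from 0.997 to 2.37 CPM over the lines, and the groups overlapped only in SNGM. ISG15 rose by 0.37 ± 0.12 (adjusted p = 0.0246, limma), a call lost in 8 of 24 alternative analyses, among them leaving out the lower HEC265 vehicle library (0.29, adjusted p = 0.0836). With 38.5% of all genes called in this mean (22.6% higher, 15.8% lower), 3 of 9 members is near the background.

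The IFIT genes, MX1, OAS1 and IFI6 gave no call on SM08502 in any line or over the mean by limma with all lines fitted together. IFIT2 in HEC265 went from 4.50 and 4.86 CPM to 2.95 and 2.70 CPM, a difference of -0.57 (adjusted p = 0.110, limma), and in Ishikawa from 23.4 and 18.7 to 24.5 and 26.0 CPM (0.26, adjusted p = 0.501). When only HEC265 was fitted, IFIT2, IFIT3 and MX1 also passed there (-0.57, -0.36 and 0.45, with adjusted p of 0.00446, 0.0337 and 0.00969). None of the members had an SM08502 effect that differed between a CTNNB1-mutated line and Ishikawa by limma, where 2.43%, 3.66% and 2.56% of all genes did in Ishikawa-S33Y, SNGM and HEC265. Of those 27 member tests, 6 had an unadjusted p under 0.05, and voom called 0. The interval for OAS3 in HEC265 minus Ishikawa was 0.05 to 0.88, and that for ISG15 was 0.14 to 1.63.

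No member passed limma's test for paclitaxel in any line. The background was 0.0118% of all genes for Ishikawa, 0% for Ishikawa-S33Y, 0.0176% for SNGM and 0.00588% for HEC265. Of the 36 member tests, 0 had an unadjusted p under 0.05 by limma, and voom called 0, with 2 under 0.05 unadjusted. OAS3 in HEC265 was at 85.7 and 86.5 CPM on paclitaxel, within the vehicle range. The widest change was that of IFI27 in Ishikawa-S33Y, from 0.690 and 1.17 to 1.57 and 1.50 CPM (0.40, 95% interval -0.13 to 0.94). Over the mean of the 4 lines, where 0% of genes were called, the largest member change was 0.18, and the interval for OAS3 was -0.15 to 0.14.

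With the combination of both drugs 7 of 36 member tests passed, 3 higher and 4 lower (1 higher and 5 lower after quantile normalisation). In HEC265 it raised OAS3 to 138 and 145 CPM (0.64 ± 0.14, adjusted p = 0.00265, limma) and ISG15 to 16.0 and 16.1 CPM (1.06 ± 0.25, adjusted p = 0.00479, limma). Both sets lay above the vehicle libraries. Without the second HEC265 vehicle library neither passed (0.55, adjusted p = 0.0509, and 0.74, adjusted p = 0.118).

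IFIT2 fell in the same line, from 4.50 and 4.86 CPM to 2.53 and 2.29 CPM (-0.74 ± 0.23, adjusted p = 0.0281, limma), and the groups did not overlap. This call was lost without any 1 of the 4 libraries (adjusted p between 0.0833 and 0.161). LIPA in HEC265 went the other way, from 85.3 to 121 CPM on average (0.50, adjusted p = 0.0383, limma).

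In Ishikawa-S33Y the combination lowered IFIT2, IFIT3 and IFI6. IFIT2 went from 9.96 and 14.0 CPM to 6.89 CPM in the deep and 5.68 CPM in the shallow library (-0.82 ± 0.23, adjusted p = 0.00699, limma). It passed with both shallow libraries left out (-0.70, adjusted p = 0.00779), but not without only its own shallow library (-0.70, adjusted p = 0.0653) or without the second vehicle library (-0.59, adjusted p = 0.115). The other 2 calls did not pass with both left out. IFIT3 went from 6.26 and 5.83 CPM to 4.88 and 3.68 CPM (-0.42, adjusted p = 0.0469; -0.26 without the shallow libraries, adjusted p = 0.295). IFI6 went from 2.02 and 1.34 CPM to 1.18 CPM and, in the shallow library, 0 reads, which allows up to 1.00 CPM (-0.85, adjusted p = 0.0135; -0.29 without, adjusted p = 0.374).

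In SNGM the combination raised ISG15, from 6.32 and 5.71 CPM to 9.50 CPM in the deep and 14.9 CPM in the shallow library (0.88, adjusted p = 0.0189, limma). Without the shallow libraries this was 0.58 and did not pass (adjusted p = 0.124). MX1 was at 7.46 CPM in the deep SNGM library and 2.49 CPM in the shallow one, with vehicle libraries at 6.87 and 8.20 CPM. In Ishikawa-S33Y it was at 7.14 and 2.67 CPM, and these duplicates spanned the vehicle values of 4.58 and 4.91 CPM. With both shallow libraries left out of the fit 10 of 36 tests were called, 7 higher and 3 lower, and 4 of the first 7 were among them. The share of all genes called was then 31.7% for Ishikawa, 39.7% for Ishikawa-S33Y, 11.5% for SNGM and 27.2% for HEC265. In Ishikawa-S33Y the member calls were IFIT1 (-0.58), IFIT2 (-0.70), MX1 (0.50) and IFI27 (0.72), in HEC265 IFIT2, ISG15, OAS3 and MX1 (0.61), in Ishikawa IFIT1 (0.45) and IFIT2 (0.42), and in SNGM none. The number of member calls also moved when single libraries were left out, most without the deep SNGM library, which left 1607038 reads for that group. The share of all genes called in those fits is not given, so such counts are no result about the members.

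Ishikawa had 22.8% of all genes called on the combination (11.6% higher, 11.2% lower) and no member. Ishikawa-S33Y had 42% (24% higher, 18% lower) and 3 members, SNGM 18.4% (10.8% higher, 7.54% lower) and 1, and HEC265 19.5% (12.4% higher, 7.16% lower) and 3. Over the mean of the lines, 49.1% of genes (29% higher, 20.1% lower) and 3 of 9 members were called: ISG15 rose by 0.56 (adjusted p = 0.000961), OAS3 rose by 0.30 (adjusted p = 0.00142) and IFIT2 fell by 0.39 (adjusted p = 0.00823), all by limma. Without the shallow libraries, where 52.1% of genes were called, these were 0.37, 0.37 and -0.23, each still called, and MX1 (0.28) and IFI27 (0.35) were called higher as well. Ishikawa gave no call by limma. Its IFIT1 went from 18.9 and 18.5 CPM to 25.5 and 26.1 CPM (0.45, adjusted p = 0.0928), and voom called it (0.46, adjusted p = 0.0289).

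No member passed limma's test between the combination and SM08502 alone. The background was 0% of all genes for Ishikawa, 0.129% for Ishikawa-S33Y, 0.253% for SNGM and 0.00588% for HEC265. Without the shallow libraries it was 0.0118%, 0.112%, 0.0235% and 0.0118%, again with 0 members called. Of 36 member tests 3 had an unadjusted p under 0.05 by limma, and voom called 0 with 0 under 0.05 unadjusted. The SM08502, paclitaxel and combination comparisons share the vehicle libraries of each line, so they are not independent of each other.

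**Figure D3:**
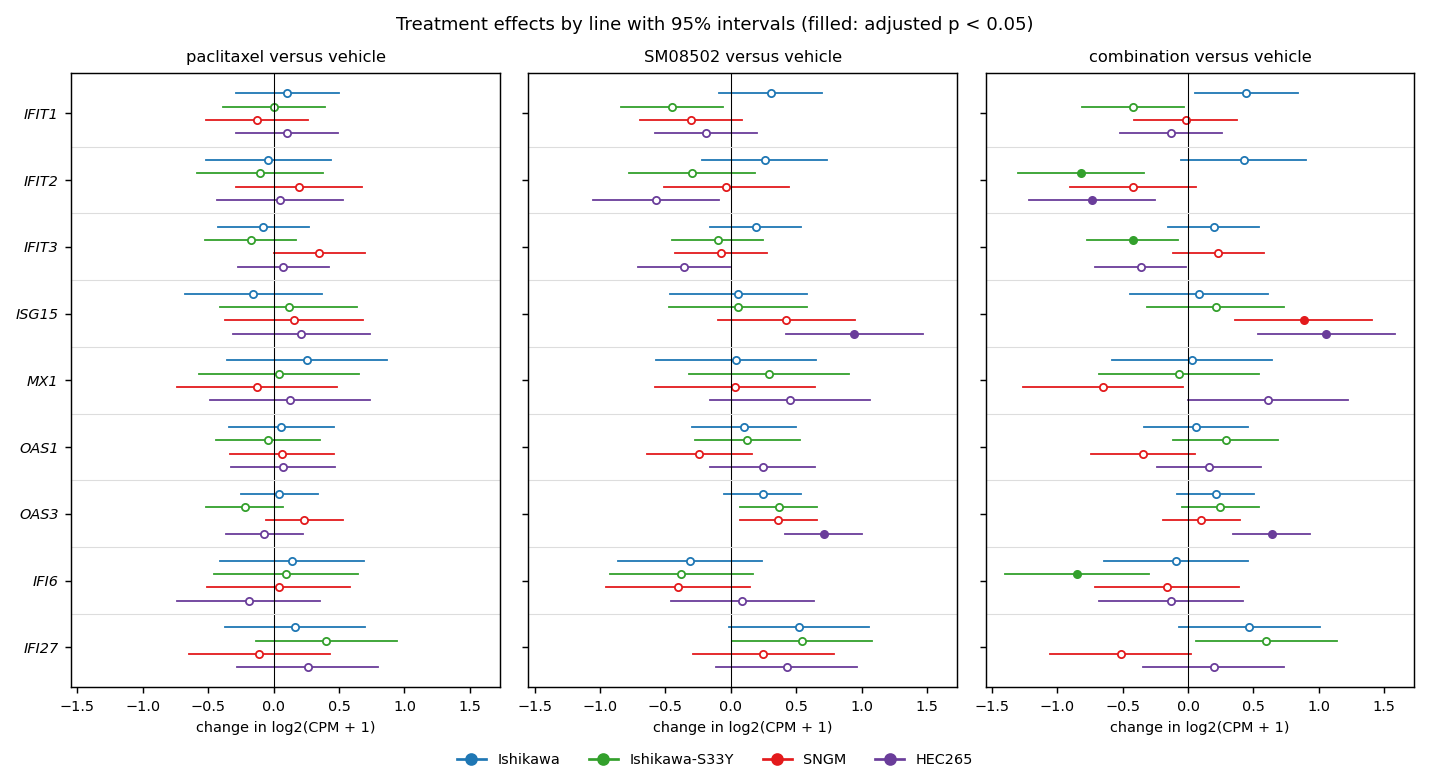
Change of each member against vehicle in log2(CPM + 1), with 95% intervals, for paclitaxel, SM08502 and the combination (panels) in each line (colour). Filled points passed an adjusted p of 0.05: none for paclitaxel, 2 for SM08502 and 7 for the combination.

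The rest of the pathway was described from lists of named genes, beginning with the ligands. Of the 9 interferon genes, IFNE and IFNW1 passed the filter on low values and 7 did not. IFNB1 had at most 3 reads in any library and was at 0 in 23 of 32, IFNL1 had at most 3 reads and was at 0 in 22, and IFNL2 was at 0 in all 32. IFNE, an interferon made by the epithelium of the reproductive tract, was at 1.32 ± 0.29 CPM (SD, n = 2) on vehicle in SNGM and 0.709 ± 0.13 CPM in HEC265, against 0.0617 ± 0.087 in Ishikawa and 0.0210 ± 0.030 CPM in Ishikawa-S33Y. IFNE passed the filter only through SNGM and HEC265 libraries, so its line differences are given as a description, with no test. SNGM lay above Ishikawa by 1.13 on the log2(CPM + 1) scale. IFNW1, a type I interferon, was at 0.830 and 0.850 CPM on vehicle in SNGM. It passed the filter only through the SNGM combination libraries, at 1.11 and 1.24 CPM. Its line differences are therefore also given with no test. On vehicle, SNGM lay above Ishikawa-S33Y by 0.51, and HEC265 minus SNGM was -0.51.

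Among the signalling genes JAK1 was higher in SNGM than in Ishikawa. JAK1, the kinase both interferon receptors need, was at 569 ± 12.9 CPM in SNGM on vehicle and at 8.47 ± 1.6 in Ishikawa, 5.34 ± 0.16 CPM in Ishikawa-S33Y and 7.43 ± 0.57 CPM in HEC265. JAK1 in SNGM exceeded Ishikawa by 5.92 (adjusted p = 1.03e-18, limma).

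IRF9, the DNA-binding partner of the STAT proteins, was at 15.6 ± 0.62 CPM in SNGM and between 1.67 and 2.66 CPM on average in the other lines. HEC265 had OAS3 above SNGM and JAK1 and IRF9 below it. Of the 11 genes on the list of kinases, STAT proteins and interferon regulatory factors, 6 were higher and 0 lower in SNGM than in Ishikawa, with a median difference of 0.45, and 2 higher and 1 lower in HEC265, with 0.17. Of the 6 receptor genes, 3 were higher and 2 lower in SNGM, and 1 higher and 2 lower in HEC265. Of all genes, 66.8% were called in SNGM and 63.3% in HEC265 in the same comparisons, which is also the background of the next 2 lists.

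Of 40 other interferon-stimulated genes, 28 were higher and 9 lower in SNGM than in Ishikawa, and 18 higher and 13 lower in HEC265. PARP14, an ADP-ribosyltransferase, was like OAS3 low in both Ishikawa lines and high in SNGM and HEC265, but SNGM stood above HEC265. It had 0.246 ± 0.086 CPM in Ishikawa, 0.295 ± 0.0016 CPM in Ishikawa-S33Y, 155 ± 0.96 CPM in SNGM and 87.4 ± 0.67 CPM in HEC265. TAP1, the peptide transporter of antigen presentation, was higher than in Ishikawa by 4.99 in SNGM and 4.19 in HEC265. The reverse held for OASL, a relative of OAS1 without its enzyme activity, which was lower by -3.15 and -3.46, and for GBP1, a GTPase, lower by -3.36 and -4.39. HERC5, the ligase that attaches ISG15 to proteins, was at 42.8 ± 1.8 CPM in Ishikawa, 14.7 ± 0.89 CPM in Ishikawa-S33Y, 0.587 ± 0.29 CPM in SNGM and 0.340 ± 0.23 CPM in HEC265, and was lower than in Ishikawa in each of the other lines.

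Among the sensors of nucleic acid, 7 of 12 were higher and 1 lower in SNGM than in Ishikawa, and 5 higher and 2 lower in HEC265. IFIH1, which senses long double-stranded RNA, was at 0.469 ± 0.31 CPM in Ishikawa, 0.116 ± 0.045 CPM in Ishikawa-S33Y, 13.3 ± 0.18 CPM in SNGM and 17.2 ± 0.58 CPM in HEC265. DDX58, which encodes the sensor RIG-I, was lower in Ishikawa-S33Y than in Ishikawa by -1.55 (adjusted p = 1.3e-09, limma).

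On SM08502 the pathway moved in both directions. Over the mean of the lines, 5 of 11 signalling and transcription factor genes rose and 1 fell, with a median of 0.19 beside 0.05 over all genes, of which 38.5% were called (22.6% higher, 15.8% lower). IRF7, which amplifies interferon production, rose by 0.59 ± 0.12 (adjusted p = 0.000482, limma). STAT2 rose by 0.33, JAK2 by 0.41 and TYK2 by 0.37.

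Of the other interferon-stimulated genes, 9 of 40 rose and 6 fell, with a median of 0.02, against the same 38.5% of all genes called. DDX60 fell by 0.65, GBP1 by 0.49 and IFITM1 by 0.45, and SP110, TRIM21 and PARP12 rose by 0.42, 0.39 and 0.39. Of the sensors, 0 of 12 rose and 4 fell, among them IKBKE by 0.51 and DDX58 by 0.46. Of the 6 brakes and ISG15 conjugation genes, UBA7, the activating enzyme for ISG15, rose by 0.39, while SOCS3, an inhibitor of JAK kinases, fell by 0.33 and UBE2L6, the conjugating enzyme, fell by 0.30.

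The combination gave 6 of 11 signalling genes higher and 1 lower, 8 of 40 other interferon-stimulated genes higher and 10 lower, and 0 of 12 sensors higher and 4 lower, all over the mean of the lines, where 49.1% of all genes were called (29% higher, 20.1% lower). Without the shallow libraries the counts were 9 and 1, 10 and 7, and 1 and 2, with 52.1% of all genes called. No gene of any list was called for paclitaxel over that mean.

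**Figure D4:**
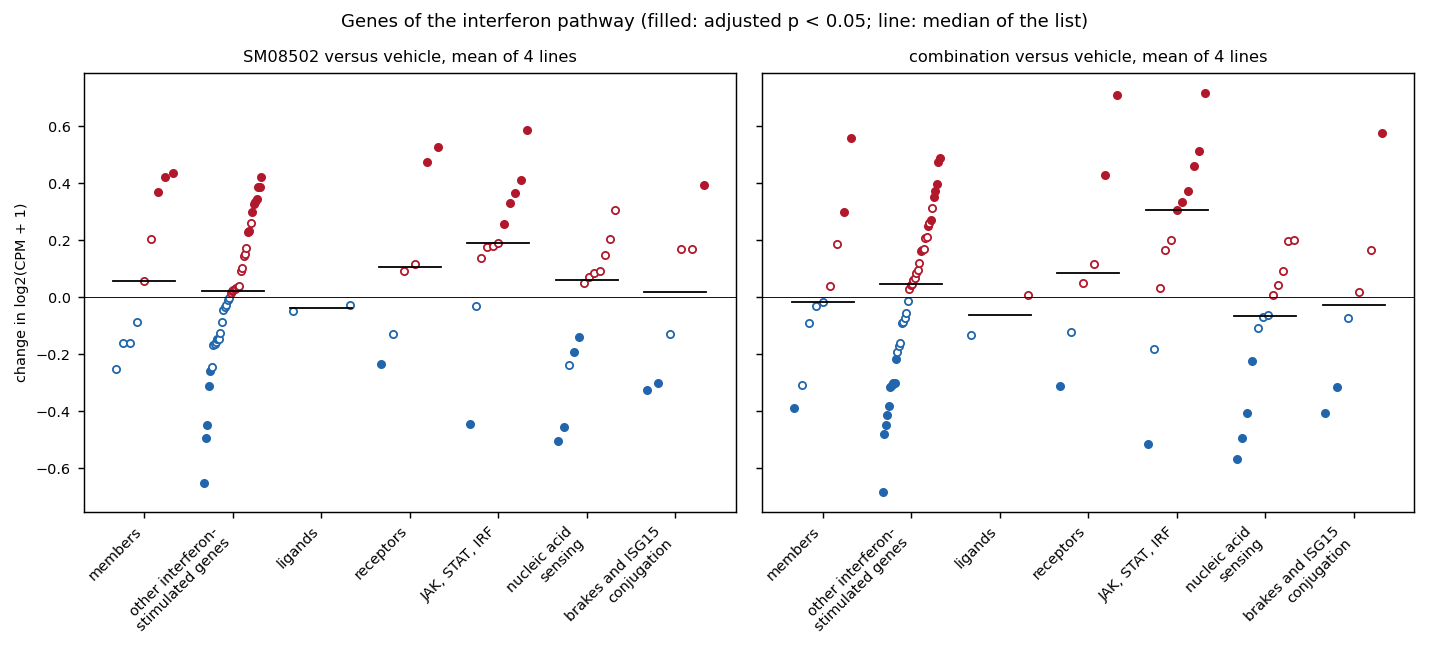
Change of each gene of the pathway lists in log2(CPM + 1) on SM08502 and on the combination, averaged over the 4 lines. Each point is a gene, filled where its adjusted p was under 0.05, and black lines are medians of the lists. The median of the signalling list was 0.19 on SM08502, and filled points lie on both sides of 0 in it and in the list of other interferon-stimulated genes.

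The members did not vary as a unit over the 16 group means of log2(CPM + 1). Pearson's r between IFIT1 and IFIT2 was 0.94 and that between IFIT3 and IFI6 0.93, whereas IFIT1 and OAS3 gave -0.72. These values describe 4 lines with 4 treatments each, so the points share lines and are not independent. Among the genes outside the members with the highest r to their mean z-score were C8orf44 (0.96), C11orf54 (0.94), MCM9 (0.92) and PEX2 (0.92). For single members the closest genes were DHX40 for IFIT1 (0.99), NFU1 for IFIT2 (0.97), B3GNTL1 for IFIT3 (0.97) and RALY for ISG15 (0.96). They were SLC5A12 for MX1 (0.86), PLCXD2 for OAS3 (0.99), SAMD9 for IFI6 (0.97) and CBWD7 for IFI27 (0.90). OAS1 passed the filter only through HEC265, so no correlation of its own is given, although it entered the mean z-score.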

How the data were processed

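RNA-seq of 4 lines, 4 treatments and 2 replicates was used as a table whose values the authors deposited as log10(CPM + 1). CPM sums to 1000000 in each library and gave whole reads for 100% of values (within 0.05 read). Per the submitters' processing notes, bcl2fastq, STAR, kallisto and the build GRCh38 were used. Per the labels' protocols, ribosomal RNA was depleted. Strand and the handling of reads shared by genes are not given in the sources used here. IFIT1, IFIT2 and IFIT3, and OAS1 and OAS3, are paralogues whose reads could be split.

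The deposited log10 values were turned into log2(CPM + 1), which understates changes of low genes. The filter kept 17011 genes. One model of 16 group means over 32 libraries was fitted with limma 3.58.1 (trend, R 4.3.3) with 16 residual degrees of freedom, and 28 contrasts were tested, two-sided, with Benjamini-Hochberg adjustment over all genes and calls at an adjusted p of 0.05. The script was tested on simulated data. Voom on the recovered reads, other filters, pseudocounts, scalings, a replicate block and leaving out each library were alternatives. Leaving out both shallow libraries together, and the differences of treatment effects between every pair of lines, were added after seeing the data. Values were plotted with matplotlib 3.10.9 in Python 3.11.15.

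Members and lists were chosen with earlier results of these data known. All members were named. From each pathway list and each contrast over the mean of lines or between lines on vehicle, up to 3 called genes a direction with the largest change could be named, with STAT2, IRF9, IRF7, IFNB1 and IFNL1 in any case. Genes resembling the members were the 5 with the highest Pearson's r to their mean and the 1 highest for each. Some genes that these rules would name are not reported here. LIPA and other genes outside this rule were chosen after their values were seen.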

Additional observations from a re-analysis of the deposited data

Results flagged for a closer look

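The combination effect differed between lines for 4 member tests by limma, of 54 made over the 6 pairs of lines. Without the shallow libraries 6 were called, 3 of the 4 and 3 others: ISG15 in HEC265 minus Ishikawa (0.97, adjusted p = 0.0288) and minus Ishikawa-S33Y (1.29, adjusted p = 0.00616), and MX1 in HEC265 minus Ishikawa (0.58, adjusted p = 0.0298). The share of all genes called without the shallow libraries is not given for these differences, so the 6 calls are no result about the members. By limma 0 of 54 such paclitaxel tests and 0 of 54 SM08502 tests passed, with 2 and 7 at an unadjusted p under 0.05. Of all genes, 0% were called in each paclitaxel pair, 2.03% to 9.83% in the SM08502 pairs and 4.73% to 22.5% in the combination pairs. For IFIT1 the effect in Ishikawa-S33Y was lower than in Ishikawa by -0.87 (adjusted p = 0.0403, 10.5% of all genes called). Without the shallow libraries it was -1.03 (adjusted p = 0.0114), and over single libraries left out the adjusted p ran from 0.0364 to 0.145, passing only without the shallow Ishikawa-S33Y library. For IFIT2 the same difference was -1.24 (adjusted p = 0.0187), and -1.13 without the shallow libraries (adjusted p = 0.00712). Over single libraries left out its adjusted p ran from 0.0182 to 0.106, and it was lost without the second vehicle library of Ishikawa (0.0916) or Ishikawa-S33Y (0.106) and without the second combination library of either line (0.0662 and 0.0665). The IFIT2 effect in HEC265 minus Ishikawa was -1.16 (adjusted p = 0.0439, 4.73% of genes called), and it was lost without any 1 of its 8 libraries (adjusted p from 0.0585 to 0.178). Without both shallow libraries its adjusted p was 0.00322. IFIT2 on the combination was at 27.8 and 29.0 CPM in Ishikawa, against 23.4 and 18.7 CPM on vehicle. For IFI27 the effect in SNGM was lower than in Ishikawa-S33Y by -1.11 (adjusted p = 0.0326, 22.5% of genes called). IFI27 had 0 reads in the shallow SNGM library, and the difference was -0.71 without the shallow libraries (adjusted p = 0.163). Over single libraries left out its adjusted p ran from 0.000464 to 0.197, the lowest without the deep SNGM combination library.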

How the results depend on the processing

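Of 48 member tests called, 26 were called under every alternative that could be run, and of 689 alternative values 80 were not called and 0 turned in sign. The SM08502 count in single lines went from 2 to 4 with voom and to 5 when only the lines compared were fitted. Leaving out each library in turn gave counts of 1 to 2 for SM08502, 3 to 15 for the combination against vehicle, 0 to 4 for the combination against SM08502, 29 to 34 for the lines on vehicle, 5 to 7 for the means over lines, and 0 for paclitaxel and for differences of the SM08502 effect. The share of all genes called in these fits is not given, so the counts are no result about the members, and the cause of their spread was not tested. The pseudocount of 0.1 gave 27 line differences and quantile normalisation 42. With a replicate block the counts were 2 for SM08502, 0 for paclitaxel, 7 for the combination, 33 for the lines and 7 for the means, against 6 without it. The deviations of same-numbered replicates, correlated between treatments over 8488 genes, had no single sign. In Ishikawa, r was 0.85 for paclitaxel with SM08502 and -0.54 for vehicle with SM08502. In SNGM, r was 0.78 for vehicle with paclitaxel and -0.59 for vehicle with SM08502. Values were smaller for HEC265, between -0.12 and 0.26, and for Ishikawa-S33Y, between -0.06 and 0.13. What the replicates of Ishikawa and SNGM shared was not tested. Without the 10 most abundant genes, vehicle levels rose by 7.65% to 15.4%. Depth limits the combination in Ishikawa-S33Y and SNGM, where 3 reads are worth 1.00 and 1.87 CPM in the shallow libraries.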
